A study of Mus musculus with 12 samples.

Results

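10 genes of the immediate early response were followed over 12 one-colour arrays: Fos, Fosb, Jun, Junb, Egr1, Egr2, Arc, Nr4a1, Atf3 and Ier3. Members were all probes whose gene symbol in the platform annotation, by current name or synonym, is one of these 10. Each gene had 1 probe, so 10 of 33012 probes, and 10 of the 13840 genes that carried a single symbol, were members. Male mice homozygous for the congenic strain B6.CAST-17, in which chromosome 17 sequence of the wild-derived strain CAST replaces that of the inbred background B6, were set against male wild type B6 mice. Skeletal muscle and hypothalamus were each profiled in 3 congenic and 3 wild type mice, which gave 4 groups of 3 arrays. No agent or stimulus is named for any group, and age is not given in the sources used here. The sample titles call the congenics short in the hypothalamus set but not in the muscle set, and whether 1 mouse gave both tissues, and whether 1 congenic line served for both, is left unstated in the sample labels. Groups were taken from the titles, because the free-text description gives the congenic strain for the wild type samples too. How the mice were handled before tissue was taken is not given in the sources used here, beyond its quick removal and freezing in liquid nitrogen. Ier3 is the only member on chromosome 17, and whether it lies within the CAST segment is not given in the sources used here.

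Immediate early genes are transcribed within minutes of a stimulus without new protein synthesis, from promoters bound by factors such as CREB and SRF that signalling kinases activate. Their products are mostly short-lived transcription factors that switch on a later wave of genes, and the messages decay soon after the stimulus ends. In brain they are read as a sign of recent neuronal firing, and in skeletal muscle they respond to contraction, stretch and injury. Fos, Fosb, Jun and Junb encode subunits of the dimeric factor AP-1. Egr1 and Egr2 are zinc finger factors, Nr4a1 is an orphan nuclear receptor, Atf3 is a stress-induced repressor of the ATF family, Arc is a synaptic protein that drives removal of AMPA receptors, and Ier3 is a regulator of cell survival.

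The 250 bases before the start site are shown for 4 members, Fos and Nr4a1, whose values varied together over the hypothalamus arrays, Jun, whose values ran the other way, and Ier3, the member on chromosome 17. They are the C57BL/6J reference sequence of RefSeq in the build GRCm38.p6, not sequence of the CAST segment, and are written 5′ to 3′ on the strand of the gene. Capitals mark a match on either strand to the cAMP response element core, TGACG, or to an EGR site, GCGNGGGCG.
Fos, chr12:85473640-85473889, plus strand: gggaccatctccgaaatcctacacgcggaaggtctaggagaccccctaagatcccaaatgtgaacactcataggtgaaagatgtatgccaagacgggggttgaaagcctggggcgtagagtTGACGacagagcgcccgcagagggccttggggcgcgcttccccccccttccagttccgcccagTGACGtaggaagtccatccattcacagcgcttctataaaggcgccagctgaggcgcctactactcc
Nr4a1, chr15:101266596-101266845, plus strand: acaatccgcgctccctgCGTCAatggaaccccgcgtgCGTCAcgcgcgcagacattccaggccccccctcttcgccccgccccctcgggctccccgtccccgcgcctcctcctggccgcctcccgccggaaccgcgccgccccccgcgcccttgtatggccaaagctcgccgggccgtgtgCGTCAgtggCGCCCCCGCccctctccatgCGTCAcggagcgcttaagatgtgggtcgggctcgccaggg
Jun, chr4:95052223-95052472, minus strand: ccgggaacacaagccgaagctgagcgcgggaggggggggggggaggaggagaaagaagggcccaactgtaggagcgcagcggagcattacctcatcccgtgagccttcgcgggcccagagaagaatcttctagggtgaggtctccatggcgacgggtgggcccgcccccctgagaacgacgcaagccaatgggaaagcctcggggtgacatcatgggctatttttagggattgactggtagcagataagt
Ier3, chr17:35821463-35821712, plus strand: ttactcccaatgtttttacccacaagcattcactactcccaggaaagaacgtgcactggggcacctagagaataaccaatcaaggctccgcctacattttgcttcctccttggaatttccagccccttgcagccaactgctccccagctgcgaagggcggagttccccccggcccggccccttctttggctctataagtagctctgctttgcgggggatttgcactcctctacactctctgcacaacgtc
The Fos window held 2 TGACG cores and no EGR site. The Nr4a1 window held 4 TGACG cores and 1 EGR site. Neither motif was found in the Jun or Ier3 window. Over 32851 windows of the same length, 17.8% held the TGACG core and 4.7% the EGR site. The full element TGACGTCA, found in 1.55% of windows, the AP-1 site TGANTCA, in 6.75%, and the CArG box, in 1.47%, were absent from these 4 windows. A full element would also count as a TGACG core, but none was found here. Of the 10 members 8 had a window in the RefSeq table, and Egr1 and Arc are named only. In the others, Fosb held 1 TGACG core and 1 EGR site, and Atf3 and Junb each held 1 TGACG core. Fosb and Atf3 did not follow Fos over the hypothalamus arrays, and a link between motifs and values was not tested. Egr2 had several start sites, with up to 2 TGACG cores and 1 CArG box in a window. A match describes letters in this window and does not show that a factor binds there. An absence likewise covers only these 250 bases and exact matches to these patterns.

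Values are log2 intensities as deposited by the authors. The base of the logarithm is not named and was inferred from the range of the values, 5.36 to 21.13, so each fold change rests on base 2. The 6 arrays of a tissue shared 1 distribution, centred on 9.12 for muscle and 8.98 for hypothalamus. The tissues were therefore normalized apart, and a tissue and its normalization cannot be told apart. No detection calls were available, so low values cannot be told from background. In bulk RNA, fewer cells of a type and less RNA per cell also cannot be told apart.

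Wild type hypothalamus array 1 stood apart from the other arrays of its tissue. Its rank correlation with them over all probes was 0.420 to 0.461, against 0.775 to 0.853 among the other hypothalamus arrays and 0.796 to 0.862 among the muscle arrays. The 8 measured neuron markers averaged 11.9 on it, 12.6 to 13.3 on the other hypothalamus arrays and 9.06 to 9.50 in muscle. Its 3 astrocyte markers averaged 9.87, against 13.1 to 13.7 on the other hypothalamus arrays. Most of that gap came from Aldoc, at 9.16 on it and at 17.1 to 19.4 on the others. Slc1a3, at 10.31 against 10.99 to 11.75, and Slc1a2, at 10.13 against 10.18 to 10.84, were lower by far less. The lower neuron mean of wild type hypothalamus array 1 came with 1 gene in particular. The neuronal enolase gene Eno2 was at 9.08 on that array and at 16.5 to 18.7 on the other hypothalamus arrays. Stmn2, at 17.8, and Nefl, at 16.4, lay within the range of the other arrays, and so did the median of the neuron markers, at 11.4. Not all 8 neuron markers set the tissues apart. With all arrays 5 were higher in hypothalamus than in muscle at an adjusted p under 0.05 in limma, and 2 were lower without passing. Snap25 was at 7.33 to 8.26 in hypothalamus and at 7.25 to 8.28 in muscle. Syt1 was at 11.54 to 13.57 in hypothalamus and at 11.85 to 13.37 in muscle. Congenic hypothalamus array 1 had high values of some pituitary hormone genes. Growth hormone, Gh, was at 17.5 there and at 7.57 to 8.86 on the other hypothalamus arrays. Prl was at 14.94 there, against 8.08 to 9.27, and Pomc at 18.18, against 8.68 to 12.97. The other measured pituitary markers did not set it apart in this way. Tshb was at 12.35 there and at 12.92 on wild type array 1. Cga was at 15.56 there, against 12.83 to 14.72, and Lhb at 11.49, against 10.15 to 11.13. The 7 skeletal muscle markers averaged 19.9 to 20.2 in muscle and 9.46 to 10.4 in hypothalamus. The members' hypothalamus results are given with and without wild type array 1.

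Most of the immediate early genes differed between the tissues. With all 12 arrays, 7 of the 10 were lower in hypothalamus than in muscle and none was higher, at an adjusted p under 0.05 in limma. Of all probes 18.5% were lower, and 29.5% passed in either direction. In numbers, 6120 probes were lower and 3633 higher. The members' median difference, hypothalamus minus muscle, was -1.42 on the log2 scale, beside -0.17 over all probes. Between congenic and wild type mice no difference passed that threshold for any of the 10 genes, in either tissue.

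**Figure D1:**
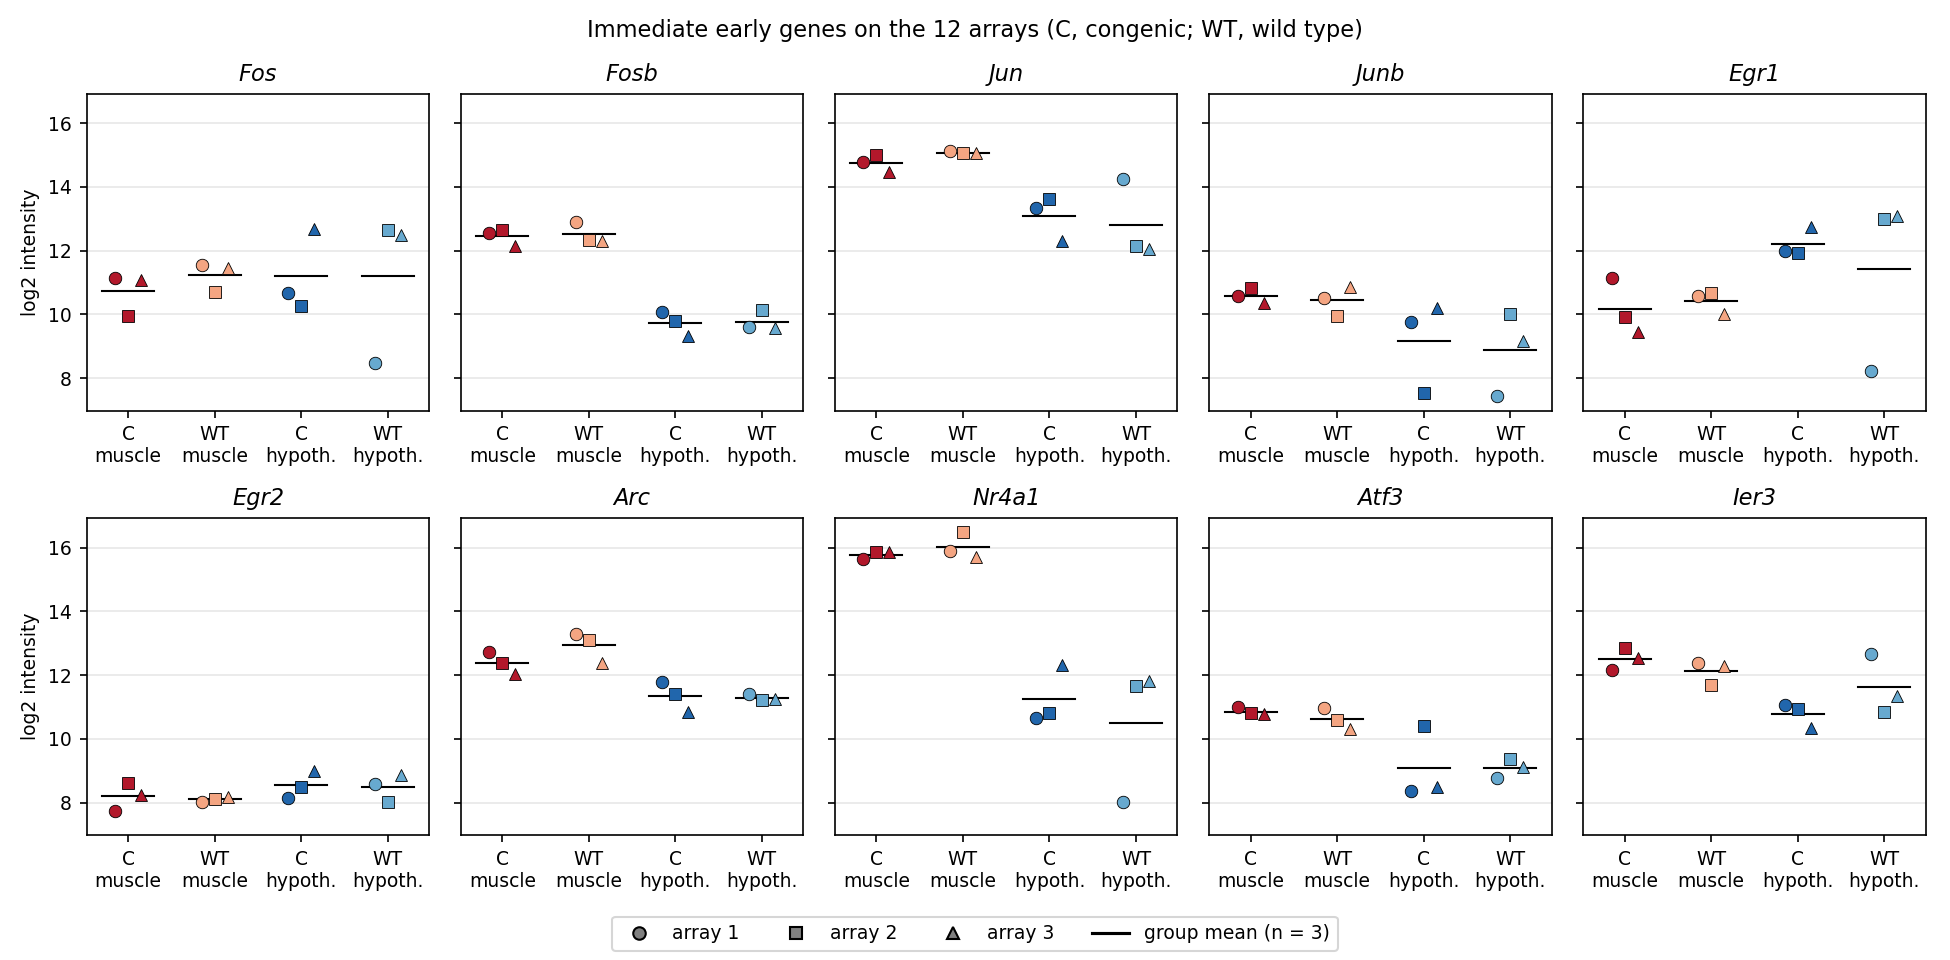
Log2 intensity of each of the 10 immediate early genes on every array, by strain and tissue, with 1 symbol shape per array number and a line at each group mean (n = 3). Nr4a1 sits between 15.6 and 16.5 in muscle and between 8.01 and 12.3 in hypothalamus, while Egr2 stays between 7.75 and 8.99 on all of them.

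Nr4a1, the orphan nuclear receptor, had the largest tissue difference of the 10. In muscle it was at 15.63, 15.86 and 15.85 on the congenic arrays and at 15.90, 16.47 and 15.69 on the wild type arrays. In hypothalamus it was at 10.66, 10.80 and 12.33 on the congenic arrays and at 8.01, 11.65 and 11.80 on the wild type arrays. Every muscle array was higher than every hypothalamus array. The difference was -5.02 ± 0.59 (SE), or 32.6-fold lower in hypothalamus (limma, adjusted p = 2.31e-05, 12 arrays). Without wild type hypothalamus array 1, whose value was the lowest, it was -4.40 ± 0.28, or 21.2-fold (limma, adjusted p = 1.28e-08).

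Among the AP-1 subunits, Fosb and Jun were lower in hypothalamus and did not overlap between the tissues. Fosb was at 12.56, 12.65 and 12.15 in congenic muscle, 12.89, 12.33 and 12.31 in wild type muscle, 10.08, 9.78 and 9.32 in congenic hypothalamus and 9.61, 10.12 and 9.57 in wild type hypothalamus. Its 4 groups each spanned less than 0.76, and the tissue difference was -2.73 ± 0.30, or 6.65-fold (limma, adjusted p = 1.13e-05). Leaving out wild type hypothalamus array 1 gave -2.69 ± 0.24 (limma, adjusted p = 3.41e-07). The Fosb value of wild type hypothalamus array 1 lay within the range of the other hypothalamus arrays.

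Jun, a partner of the Fos proteins, was at 14.79, 15.01 and 14.48 in congenic muscle and at 15.11, 15.05 and 15.05 in wild type muscle. Its hypothalamus values were 13.34, 13.63 and 12.30 on the congenic arrays and 14.23, 12.15 and 12.05 on the wild type arrays. Wild type array 1 gave its highest hypothalamus value, still under the lowest muscle value. The tissue difference was -1.96 ± 0.41 (limma, adjusted p = 0.00237), and -2.32 ± 0.23 without that array (limma, adjusted p = 1.29e-06).

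Junb, a less potent activator than Jun, was at 10.59, 10.82 and 10.36 in congenic muscle and at 10.53, 9.95 and 10.86 in wild type muscle. In hypothalamus it ranged more widely, at 9.77, 7.53 and 10.19 on the congenic arrays and at 7.43, 10.02 and 9.16 on the wild type arrays. Congenic array 2 and wild type array 1 were low, and the tissues overlapped. The difference of -1.50 ± 0.53 passed with all arrays (limma, adjusted p = 0.0489) and did not without wild type hypothalamus array 1 (-1.14 ± 0.44, limma, adjusted p = 0.0523). Junb passed under 6 of 20 alternatives of the processing, so its call depended on the setting.

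Fos itself did not pass between the tissues. It was at 11.14, 9.96 and 11.08 in congenic muscle and at 11.56, 10.71 and 11.46 in wild type muscle. On the hypothalamus arrays the values were 10.66, 10.27 and 12.67 on the congenic arrays and 8.47, 12.65 and 12.50 on the wild type arrays. The hypothalamus values thus lay both above and below those of muscle. The tissue difference was 0.22 ± 0.69 (limma, adjusted p = 0.858; 95% interval -1.27 to 1.70), and 0.90 ± 0.40 without wild type hypothalamus array 1 (limma, adjusted p = 0.0923).

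Egr1, a zinc finger factor widely used as an activity marker in brain, was at 11.14, 9.92 and 9.46 in congenic muscle and at 10.57, 10.68 and 10.02 in wild type muscle. The hypothalamus values were 11.99, 11.92 and 12.75 on the congenic arrays and 8.22, 12.98 and 13.09 on the wild type arrays. Every hypothalamus array other than wild type array 1 was higher than every muscle array, and that array was lower than all of them. With all arrays the tissue difference was 1.53 ± 0.72 and did not pass (limma, adjusted p = 0.137). Without that array it was 2.33 ± 0.31, or 5.03-fold higher in hypothalamus (limma, adjusted p = 2.03e-05), which made Egr1 the only member called higher there.

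Egr2, which acts in myelinating glia and neurons, was at 7.75, 8.62 and 8.25 in congenic muscle, 8.03, 8.11 and 8.17 in wild type muscle, 8.14, 8.50 and 8.99 in congenic hypothalamus and 8.59, 8.02 and 8.85 in wild type hypothalamus. All of these values lay under the median of all probes of their tissue, except the 8.99 on congenic hypothalamus array 3. The tissue difference was 0.36 ± 0.28 (limma, adjusted p = 0.394; 95% interval -0.25 to 0.98), and 0.33 ± 0.31 without wild type hypothalamus array 1 (limma, adjusted p = 0.429).

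Arc, known mainly from neurons, was higher in muscle than in hypothalamus on every array. It was at 12.73, 12.37 and 12.03 in congenic muscle, 13.29, 13.12 and 12.39 in wild type muscle, 11.78, 11.39 and 10.85 in congenic hypothalamus and 11.42, 11.21 and 11.25 in wild type hypothalamus. The difference was -1.34 ± 0.31, or 2.53-fold lower in hypothalamus (limma, adjusted p = 0.00459). Leaving out wild type hypothalamus array 1 gave -1.37 ± 0.24 (limma, adjusted p = 3.37e-04).

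Atf3, a stress-induced factor, was at 10.99, 10.80 and 10.78 in congenic muscle and at 10.98, 10.61 and 10.32 in wild type muscle. Hypothalamus gave 8.38, 10.40 and 8.48 on the congenic arrays and 8.78, 9.36 and 9.12 on the wild type arrays. Congenic hypothalamus array 2 reached the lowest muscle value, and the other hypothalamus arrays lay under it. The difference was -1.66 ± 0.39, or 3.16-fold (limma, adjusted p = 0.00522), and -1.58 ± 0.36 without wild type hypothalamus array 1 (limma, adjusted p = 0.00270).

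Ier3, which modulates survival signalling, was at 12.17, 12.85 and 12.53 in congenic muscle and at 12.37, 11.68 and 12.30 in wild type muscle. In hypothalamus it was at 11.08, 10.94 and 10.33 on the congenic arrays and at 12.67, 10.83 and 11.34 on the wild type arrays. Wild type array 1 alone reached into the muscle range. The tissue difference was -1.12 ± 0.36, or 2.17-fold (limma, adjusted p = 0.0336), and -1.38 ± 0.24 without that array (limma, adjusted p = 2.58e-04). The call held under 11 of 20 alternatives.

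**Figure D2:**
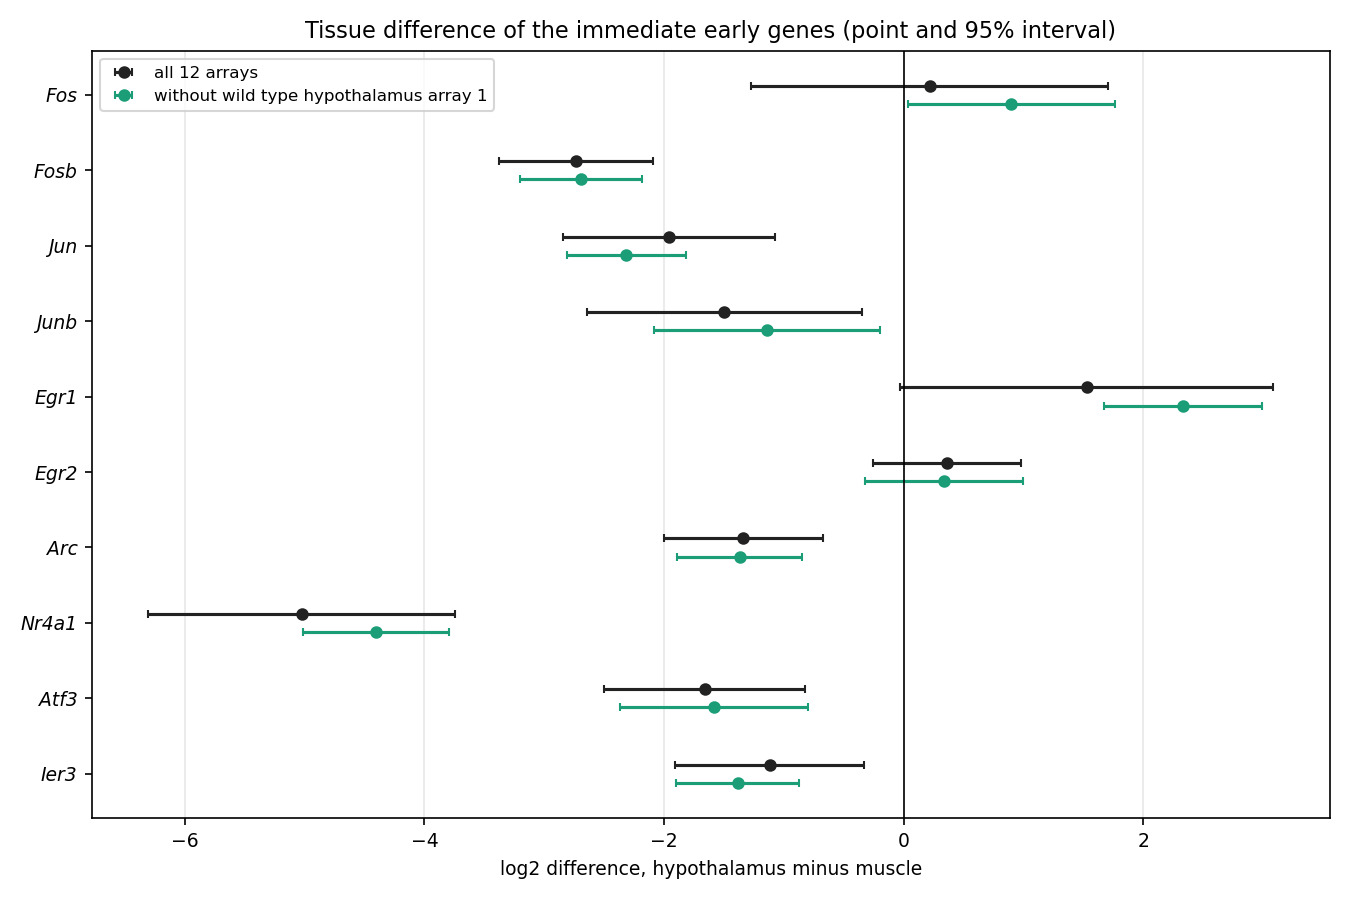
Log2 difference between hypothalamus and muscle for each immediate early gene, with its 95% interval, from all 12 arrays and without wild type hypothalamus array 1. Values left of 0 are lower in hypothalamus; Nr4a1 lies farthest left, at -5.02 and -4.40, and the interval of Egr1 narrows to 1.67 to 2.99 when the array is left out.

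Fosb, Jun, Arc, Nr4a1 and Atf3 were lower in hypothalamus under all 20 alternatives. Without wild type hypothalamus array 1, 6 of the 10 were lower and 1 was higher, beside 24.8% and 15.7% of all probes, or 40.5% together. With all arrays, 4 members did not overlap between the tissues, all lower in hypothalamus, beside 13.3% of probes lower without overlap and 20.2% in either direction. Without that array 5 were lower without overlap and 1 was higher, beside 17.7% and 11.8% of probes, or 29.6% together. With 1 normalization over all 12 arrays, 5 members were called lower and none higher, beside 14.6% of probes lower and 27.6% in either direction, or 4826 lower and 4292 higher. That scaling moved the median of all probes from -0.17 to 0.01, and Junb (limma, adjusted p = 0.0702) and Ier3 (limma, adjusted p = 0.0708) no longer passed. Markers of other cell types differed between the tissues as well. The 5 fibroblast markers averaged 16.6 to 17.3 in muscle and 10.4 to 11.98 in hypothalamus, and the 5 macrophage and microglia markers 12.97 to 14.1 and 11.1 to 12.5. Their part in the tissue differences was not tested.

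Other genes of the early response were given from 6 lists, of whose 99 genes 83 were measured. With all arrays 8 were higher and 34 lower in hypothalamus, beside 3633 and 6120 of the 33012 probes (18.5% lower, 29.5% in either direction), and their median difference was -0.84. Without wild type hypothalamus array 1 the counts were 13 and 40, beside 15.7% and 24.8% of probes, and with 1 normalization over 12 arrays 10 and 29, beside 4292 and 4826 probes. The counts by list are those with all arrays unless another setting is named. Among other AP-1, ATF and MAF factors none was higher and 5 of 12 were lower (1 and 5 without wild type hypothalamus array 1, 0 and 3 with 1 normalization), with Atf5 at -2.58 and Atf4, the translation-controlled stress factor, at -2.52 (limma, adjusted p = 0.00146 and 4.67e-04). The 1 called higher without that array was Jdp2, an AP-1 repressor, at 1.25 (limma, adjusted p = 1.95e-04). Among other early transcription factors 2 of 17 were higher, Nr4a2 at 2.01 and Egr4 at 1.51 (limma, adjusted p = 0.00159 and 0.0363). In the same list 6 were lower (10 without that array, 5 with 1 normalization), with the CCAAT-binding factors Cebpb at -3.87 and Cebpd at -3.78 (limma, adjusted p = 7.16e-06 and 6.35e-06). Relatives of 1 family thus differed: Nr4a1 was lower and Nr4a2 higher in hypothalamus. Their relative Nr4a3 did not pass, at -0.19 ± 0.28 (limma, adjusted p = 0.683).

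Of the feedback inhibitors, which end the response, 6 of 15 were lower and none was higher. Zfp36l1, which like its relative Zfp36 destabilises messages, was called higher without wild type hypothalamus array 1, at 0.52, and with 1 normalization, at 1.43 (limma, adjusted p = 0.0387 and 0.00950). Those that were lower included Dusp1, a phosphatase that switches off MAP kinases, at -2.70, and Zfp36, which acts on early messages, at -2.49 (limma, adjusted p = 2.85e-05 and 2.94e-04). Of the upstream factors 7 of 18 were lower and none was higher with all arrays, against 10 lower and 2 higher without wild type hypothalamus array 1, where Creb1 was at 1.15 and Map2k1 at 1.03 (limma, adjusted p = 0.0184 and 2.18e-04). With 1 normalization 7 were lower and Mkl2, a cofactor of SRF, was higher, at 1.11 (limma, adjusted p = 0.0257). Those lower with all arrays included Mef2c at -5.05 and Srf, which binds the CArG box, at -4.11 (limma, adjusted p = 8.25e-07 and 8.54e-07). The effectors of neuronal activity divided, with 6 of 13 higher and 4 lower in hypothalamus, and 7 and 4 without that array. Scg2, a precursor of secreted peptides in dense-core vesicles, was at 6.79 and the neurotrophin Bdnf at 2.53, while Gadd45b was at -4.23 and Homer1, a synaptic scaffold, at -2.04 (limma, adjusted p = 3.69e-04, 0.00772, 1.85e-05 and 7.15e-04). Of the secreted and matrix genes 6 of 8 were lower (5 without that array, 4 with 1 normalization) and none was higher in any of these, with Ctgf at -2.66 and Cyr61 at -2.22 (limma, adjusted p = 0.00111 and 2.25e-04). The genes named here as called with all arrays, which are a part of those called, kept their calls without wild type hypothalamus array 1 and with 1 normalization over 12 arrays. Others did not. Mafg, a MAF factor, was at -1.30 with all arrays (limma, adjusted p = 0.00197). With 1 normalization it was at -0.55 and did not pass (limma, adjusted p = 0.161).

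Between the strains in muscle, none of the 10 passed, beside 6 of 33012 probes, or 0.0182% (limma, adjusted p 0.835 to 0.973 over the members). None had an unadjusted p under 0.05 either, which 5.01% of probes had. Jun was the only member whose groups did not overlap, beside 11.9% of probes, with every congenic array lower than every wild type array, as for 5.27% of probes. Its difference, congenic minus wild type, was -0.31 ± 0.18 (limma, adjusted p = 0.835; 95% interval -0.71 to 0.09). Arc had the largest difference, -0.56 ± 0.29 (limma, adjusted p = 0.835; 95% interval -1.21 to 0.10), with congenic array 1 above the lowest wild type array. For Fos the difference was -0.52 (95% interval -1.41 to 0.38), so a change past 2-fold in muscle lay within its interval. The members' median was -0.15, beside 0.01 over all probes.

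Between the strains in hypothalamus, none of the 10 passed, and neither did any probe, 0.0% of 33012 (limma, adjusted p 0.936 to 1.00 over the members). An unadjusted p under 0.05 was reached by 658 probes, or 1.99%, and by none of the members. The groups overlapped for all 10, while 9.16% of probes did not overlap. The intervals were wide: the strain difference of Fos was -0.01 ± 1.22 (95% interval -2.79 to 2.78), that of Egr1 0.79 ± 1.26 and that of Nr4a1 0.78 ± 1.09. The members' median was 0.05, beside -0.07 over all probes.

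Without wild type hypothalamus array 1 again no member and no probe passed, 0.0% (limma, adjusted p 0.900 to 0.984 over the members), while 1761 probes, or 5.33%, had an unadjusted p under 0.05. Jun and Egr1 were the members among them, and also the members whose groups did not overlap, beside 22.6% of probes, 9.32% higher and 13.3% lower in congenic mice. Jun was higher on all 3 congenic arrays, with a difference of 0.99 ± 0.41 (95% interval 0.05 to 1.93; limma, adjusted p = 0.900). Egr1 was lower on all 3, with a difference of -0.81 ± 0.33 (95% interval -1.58 to -0.05; limma, adjusted p = 0.900). Neither difference passed the threshold over all probes. Leaving out that array turned the sign of the difference for Egr1, Nr4a1, Junb and Atf3, and Fos came to -1.37 ± 0.65 (limma, adjusted p = 0.900). Without congenic array 1 as well, the array with high Gh, Prl and Pomc, Fos was at -1.10, Jun at 0.86 and Egr1 at -0.70, and none passed.

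**Figure D3:**
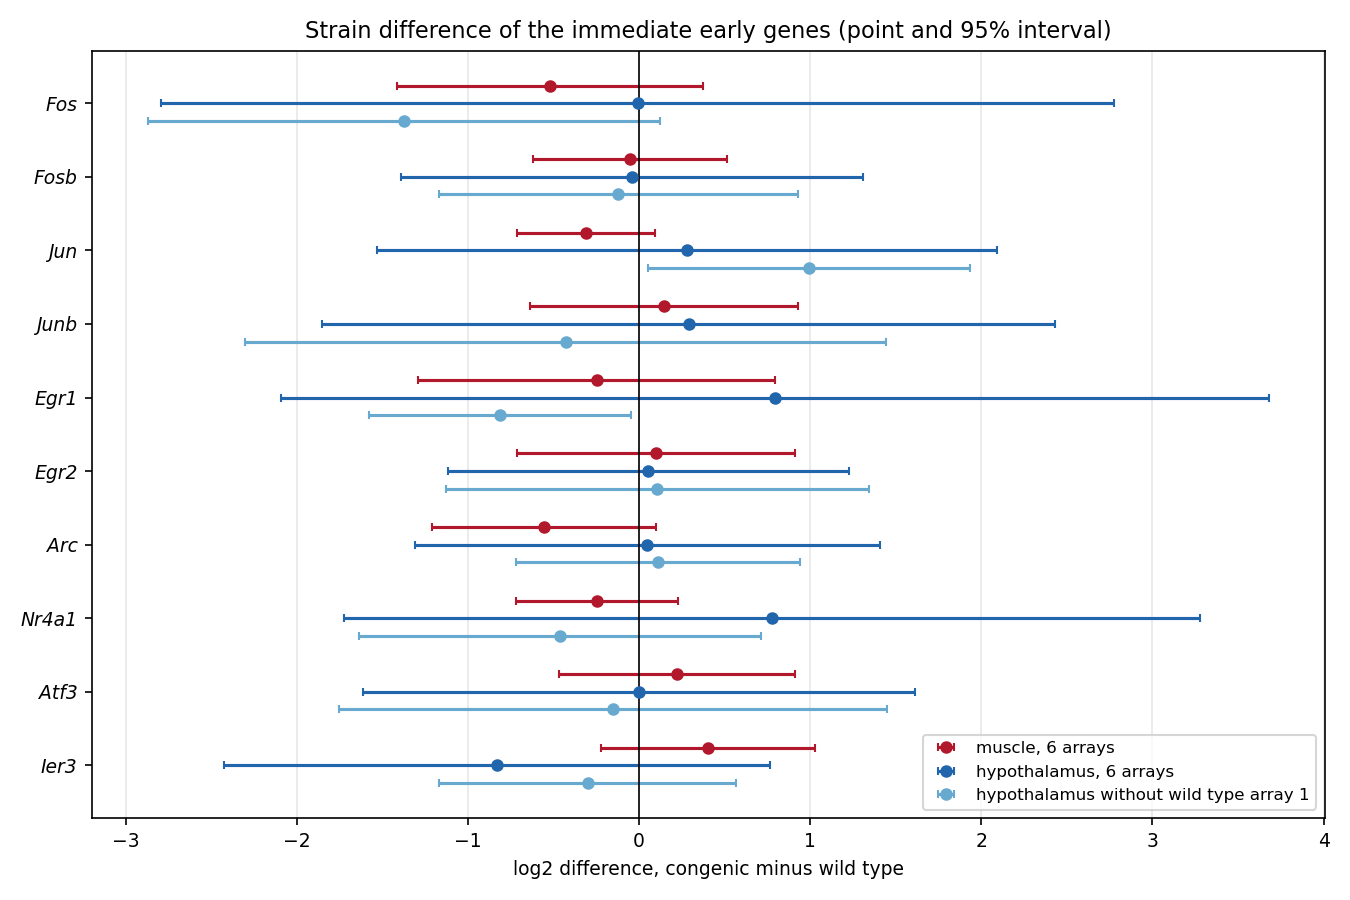
Log2 difference between congenic and wild type mice for each immediate early gene in muscle and in hypothalamus, the latter with and without wild type array 1, with 95% intervals. The hypothalamus interval of Fos spans -2.79 to 2.78 with all arrays, and no difference passed at an adjusted p of 0.05.

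The strain difference was not shown to differ between the tissues for any member. In the interaction test none of the 10 passed, beside 0.0% of probes (limma, adjusted p 0.913 to 0.998), and 1198 probes, or 3.63%, but no member had an unadjusted p under 0.05. Without wild type hypothalamus array 1 Jun was the only member to reach that, beside 6.74% of probes, at 1.30 ± 0.46 (limma, adjusted p = 0.692). Over the 83 other early response genes none passed between the strains in either tissue, with or without that array, beside the same 0.0182% in muscle and 0.0% in hypothalamus. An unadjusted p under 0.05 in limma was reached by 5 of them in muscle, beside 5.01% of all probes, and by 3 in hypothalamus, both with all arrays and without wild type array 1, beside 1.99% and 5.33%. They are named after their values were seen: Klf2, Cebpd, Spry4, Mef2c and Rps6ka3 in muscle, Jund, Crem and Sik1 in hypothalamus, and Jund, Crem and Bdnf there without that array. None of them passed over all probes (limma, smallest adjusted p 0.835 in muscle, 0.936 in hypothalamus and 0.900 there without that array). Sik1 is on chromosome 17, as Ier3 is, and so are Dusp1, Srf and Mapk14 of the same lists. Whether these genes lie within the CAST segment is not given in the sources used here.

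Within the hypothalamus Fos, Nr4a1 and Egr1 were high and low on the same arrays, across the strains, and Jun ran the other way. Fos was lowest on wild type array 1, then on congenic arrays 2 and 1, and was high on wild type arrays 3 and 2 and congenic array 3. Nr4a1 and Egr1 were also lowest on wild type array 1, then on the same pair of congenic arrays, and high on the same 3 arrays as Fos. Jun was highest on wild type array 1, then on congenic arrays 2 and 1, and low on the remaining 3. Fosb, Arc, Egr2 and Atf3 did not follow: on wild type array 1 each lay within the range of the other 5 hypothalamus arrays. Junb and Ier3 followed in part, since Junb was higher on congenic array 1 than on wild type array 3, and Ier3 was second highest on wild type array 3.

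On wild type hypothalamus array 1, 4 members lay under the range of the other 5 arrays: relative to their mean, Egr1 was at -4.33, Nr4a1 at -3.44, Fos at -3.28 and Junb at -1.90. Large shifts were common on that array. Of the probes whose mean on the other 5 arrays was within 0.5 of that of Fos, 24.7% were as low or lower on it, and for Egr1 and Nr4a1 the shares were 17.8% and 15.7%. For Junb it was 5.62%. Jun and Ier3 were higher on it than on any other, at 1.54 and 1.77 over the mean, and 81.8% and 77.9% of probes of like level were at or under that shift.

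**Figure D4:**
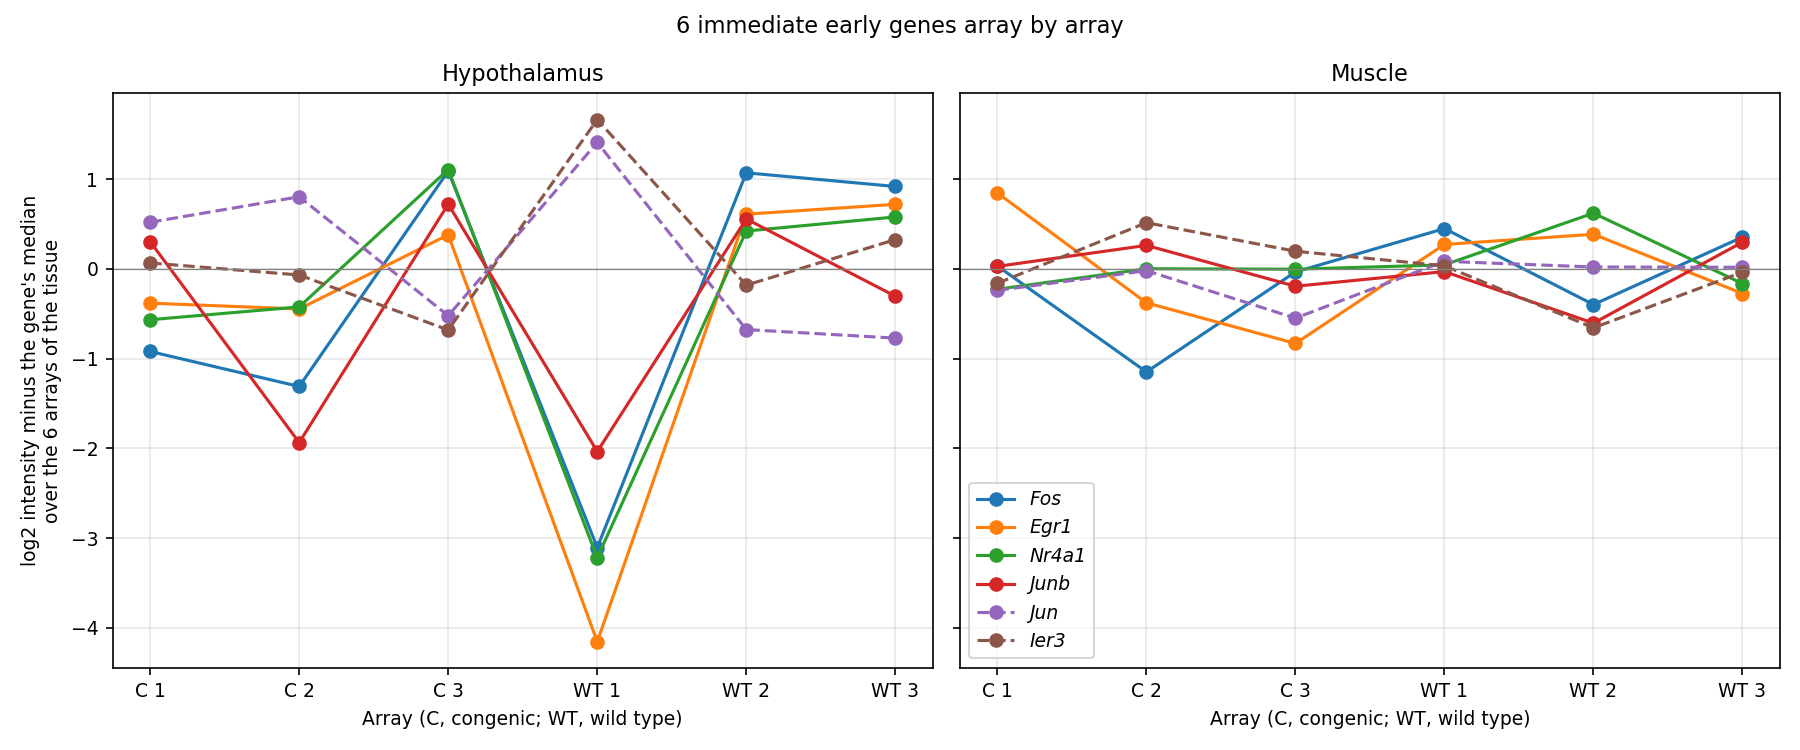
6 immediate early genes on each hypothalamus and muscle array, as log2 intensity minus the gene's median over the 6 arrays of the tissue; the lines join the points of a gene (dashed for Jun and Ier3), and the arrays have no order. In hypothalamus Fos, Egr1 and Nr4a1 are low on wild type array 1 and on congenic arrays 1 and 2, where Jun is high.

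The spread of Fos was large also in the congenic group, which does not hold that array. Its SD over the 3 congenic hypothalamus arrays was 1.29, beside a median of 0.44 for probes of like level, and 94.9% of those probes varied less or as much. Junb had an SD of 1.43 there and Egr1 of 0.46, beside medians of 0.75 and 0.33 for probes of like level. The low Junb value, 7.53 on congenic array 2, was at percentile 9.73 of all probes of that array. Such a value cannot be told from background. In muscle the SD of Fos was 0.66 in congenic and 0.46 in wild type mice, beside medians of 0.45 and 0.26 for probes of like level. Of those probes 72.9% and 83.3% varied less. In wild type muscle Arc, with an SD of 0.48, and Nr4a1, with 0.41, varied more than 95.2% and 96.6% of probes of like level. Arc varied little in wild type hypothalamus, with an SD of 0.11 even with array 1 included. Marker means also varied over these arrays. The 5 oligodendrocyte markers averaged 8.13 on wild type array 1, 9.65 and 11.5 on congenic arrays 1 and 2, 10.03 and 10.3 on wild type arrays 2 and 3 and 13.4 on congenic array 3. Wild type array 1 was lowest for them and for Fos, and congenic array 2 was second highest for them and second lowest for Fos. The 5 endothelial markers averaged 9.72 on wild type array 1 and 11.07 and 11.08 on wild type arrays 2 and 3. On congenic arrays 1, 2 and 3 the endothelial means were 10.56, 9.90 and 10.55. Wild type array 1 and congenic array 2 were thus lowest for these markers and for Fos. Congenic array 3 was highest for Fos and lay under wild type arrays 2 and 3 for these markers. The part of these or other cell types in the order of the arrays was not tested.

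Likeness to Fos was measured as Pearson's r of the deviations from the 4 group means, which describes these arrays and carries no test, since a single array can set it. Over the 12 arrays the most like of 13839 other genes were Fam91a1 (r = 0.990), Nxt2, Scly, 4932438A13Rik and Nsun6. Without wild type hypothalamus array 1 they were Fam91a1 (r = 0.986), Gna14, Ext2, Amph and Abcd3, so Fam91a1 was the only gene named over both sets. No member was among them. Nr4a1 had r = 0.898 over 12 arrays, at rank 551, and 0.598 over 11, at rank 1924. Egr1 had 0.868, at rank 1144, and 0.422, at rank 3689, so many other genes were more like Fos than these members. Jun lay at the other end, at rank 13837 of 13839 with r = -0.970 over 12 arrays and r = -0.896 over 11. All of these share the same arrays and the same normalization within a tissue.

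Ier3 was read against its neighbours, since it shares their chromosome with the congenic segment. In the gene order of the RefSeq table it was at place 352 of 656 measured genes of chromosome 17. Its strain difference was 0.40 ± 0.28 in muscle (limma, adjusted p = 0.835; 95% interval -0.22 to 1.03) and -0.83 ± 0.70 in hypothalamus (limma, adjusted p = 0.936), or -0.30 ± 0.38 without wild type array 1 (limma, adjusted p = 0.939). In muscle congenic arrays 2 and 3 lay above all wild type arrays and congenic array 1 did not.

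None of the 5 measured genes on either side of Ier3 passed in either tissue. Cchcr1, 5 places before it, was at 11.23, 11.48 and 11.62 in congenic muscle and at 10.95, 10.82 and 9.73 in wild type muscle, with no overlap. Its difference was 0.94 ± 0.37 (limma, adjusted p = 0.835). In hypothalamus it was at 11.63, 12.22 and 11.83 on the congenic arrays and at 12.23, 10.47 and 10.60 on the wild type arrays, and the difference was 0.79 ± 0.69 with all arrays (limma, adjusted p = 0.936) and 1.36 ± 0.32 without wild type array 1 (limma, adjusted p = 0.900). Tubb5, a tubulin gene, was higher on every congenic muscle array than on every wild type one, by 0.48 ± 0.20 (limma, adjusted p = 0.835), and its hypothalamus difference was -0.13 ± 0.49, or -0.10 ± 0.44 without wild type array 1. Dhx16, a helicase gene, also did not overlap in muscle, where 11.9% of all probes did not. It was higher in congenic muscle, by 0.41 ± 0.30 (limma, adjusted p = 0.836). In hypothalamus it ran the other way, with every congenic array under every wild type array, beside 9.16% of probes without overlap. The difference there was -1.23 ± 0.73 (limma, adjusted p = 0.936), or -1.29 ± 0.64 without wild type array 1 (limma, adjusted p = 0.900). The remaining neighbours, Psors1c2, 2300002M23Rik, Vars2, Gtf2h4, Flot1, Mdc1 and Nrm, overlapped between the strains in muscle.

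**Figure D5:**
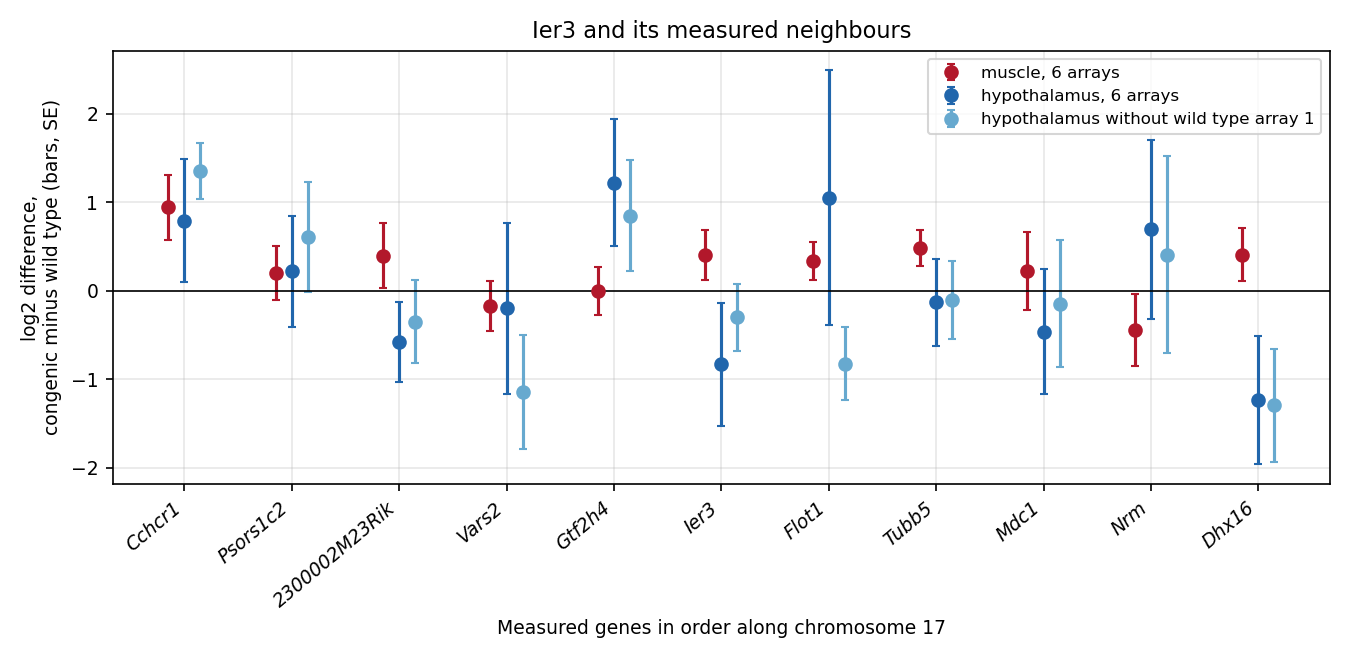
Log2 difference between congenic and wild type mice, with its SE, for Ier3 and the 5 measured genes on either side of it in order along chromosome 17, in muscle and in hypothalamus with and without wild type array 1. Cchcr1 lies above 0 in each, at 0.94, 0.79 and 1.36, and Ier3 lies at 0.40, -0.83 and -0.30.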

How the data were processed

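RNA of 12 samples was isolated in TRI-Reagent, cleaned on Qiagen columns and labelled with digoxigenin as cRNA by an Applied Biosystems chemiluminescent kit, per the labels' protocols. The values deposited by the authors were used as log2 intensities, with no floor or filter. The sources used here name neither software nor background correction. Of 33012 probes, 14411 carried 1 gene symbol in the platform annotation, 247 several and 18354 none, and 14402 of the first matched the RefSeq table of GRCm38.p6, which was used for names, order and promoter windows. Where a gene other than a member had several probes, only the one with the highest mean over the 12 arrays was used. Among these were Creb1, with 3 probes, and Cebpb and Klf2, with 2 each.

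Strain differences were fitted per tissue, and tissue and interaction contrasts over all 12 arrays, with limma 3.58.1 in R 4.3.3 (lmFit, and eBayes with a mean-variance trend). P-values were adjusted by Benjamini-Hochberg over all probes, with a threshold of 0.05, and the fit was tested on simulated data. Tests are two-sided. The 3 mice of a strain are biological replicates per the design text, and p-values measure the spread between these samples. The members and all lists were chosen with earlier results of these data known. Named genes were all members; of each further list, at most 4 per direction that passed in a comparison, and, after their values were seen, those called higher only under an alternative or with an unadjusted p under 0.05 between the strains; the 5 genes most like Fos; and 5 measured neighbours of Ier3 on each side. Alternatives were a floor at the 20th percentile of each array, leaving out dim probes, no trend, a replicate block, a random block, a fit over all arrays, quantile normalization over 12 arrays, leaving out each array, and leaving out both hypothalamus arrays 1 together. Quantile normalization over 11 arrays was added after seeing the data, and so was the naming of Nr4a3 as a relative of Nr4a1 and Nr4a2. The promoter windows printed in full were chosen with the array values known.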

Additional observations from a re-analysis of the deposited data

How the results depend on the processing

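Among the members, the tissue differences of Fosb, Jun, Arc, Nr4a1 and Atf3 passed under all 20 alternatives, Ier3 under 11, Junb under 6, Egr1 under 3, and Fos and Egr2 under none. No strain or interaction difference of a member passed under any alternative. Leaving out 1 array each gave 8413 to 13381 probes called between the tissues, beside 9753, and 2 to 8 in muscle between the strains, beside 6. That muscle count was 2 with the floor, 2 without the trend and 1 in the fit on all 12 arrays. Quantile normalization over 11 arrays called 1 probe in the interaction, beside 0.

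Signs of differences that did not pass turned under some settings. Leaving out 1 array each gave, in muscle, Fosb -0.15 to 0.13, Junb -0.10 to 0.35, Egr1 -0.73 to 0.11 and Egr2 -0.11 to 0.33. In hypothalamus it gave Fos -1.37 to 0.71, Fosb -0.22 to 0.16, Jun -0.10 to 0.99, Junb -0.43 to 1.11, Egr1 -0.81 to 1.62, Egr2 -0.18 to 0.25, Arc -0.17 to 0.29, Nr4a1 -0.46 to 1.44 and Atf3 -0.65 to 0.36. In the interaction it gave Fos -0.86 to 1.23, Fosb -0.18 to 0.21, Junb -0.57 to 0.96, Egr1 -0.57 to 1.87, Egr2 -0.28 to 0.16, Nr4a1 -0.22 to 1.68 and Atf3 -0.88 to 0.14. Between the tissues it gave Fos -0.15 to 0.90. Leaving out both hypothalamus arrays 1 gave Junb -0.73, Egr1 -0.70, Arc -0.11 and Nr4a1 -0.16 between the strains in hypothalamus, and Fos -0.59, Fosb -0.24, Junb -0.88, Egr1 -0.45 and Egr2 0.21 in the interaction. Quantile normalization over 11 arrays gave Fos -0.90, Fosb -0.067, Junb -0.57, Egr1 -0.65, Egr2 0.0074 and Nr4a1 -0.22 there. The cause was not tested.

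With a replicate block, 6 probes were called in muscle, 0 in hypothalamus, 0 in the interaction and 9648 between the tissues, where limma's adjusted p of Junb was 0.0644. Same-numbered arrays of the strains had correlated deviations of 0.01 to 0.07 in muscle and -0.13 to 0.14 in hypothalamus. For unlike numbers these were -0.08 to 0.02 and -0.16 to 0.14. Between the tissues, same-numbered arrays of a strain had 0.02 to 0.08. Unlike numbers had -0.02 to -0.004 in congenic and -0.08 to 0.04 in wild type mice. The random block of strain and number had a correlation of 0.03. The numbers were not taken as pairs in the main fits, since a shared mouse is not stated. Each member had 1 probe, so no other probe could be tried. The number of arrays and the missing detection calls limit the precision.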
